A study of Rattus norvegicus with 4 samples.

Results

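The cholinergic genes of the hippocampus were examined as a group of 10: the nicotinic receptor subunit genes Chrna3, Chrna4, Chrna5, Chrna7, Chrnb2 and Chrnb4, the acetylcholinesterase gene Ache, the choline acetyltransferase gene Chat, the vesicular acetylcholine transporter gene Slc18a3 and the choline transporter gene Slc5a7. They were chosen by name, and their probes were found through the RefSeq accession of each noncontrol spot. Of the 10 genes, 9 had a probe, with 11 probes and 20 spots among the 41012 probes and 43379 noncontrol spots of the array. No accession on the array resolved to Chat, which is not analysed here. The 11 probes stand among 10768 probes, of 8899 genes, that received a symbol in this way.

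Male Wistar rats, 10 weeks old at allocation, were kept for 4 weeks in standard cages (sedentary, 10 rats), with a running wheel without resistance (WR, 8 rats), or with a wheel whose resistance began at 4.5 g and was raised to 30% of body weight (RWR, 8 rats). All rats were housed individually, and hippocampal RNA was taken on the day after the last day of exercise. RNA was pooled within each group before labelling, and each chip held a running pool and a sedentary pool in opposite dyes. The study's methods do not say whether the same sedentary pool was used on all chips. In chip 1 the WR pool was in Cy5 and in chip 2 in Cy3, and chips 3 and 4 held the RWR pool in Cy5 and in Cy3 in the same manner. Both chips of a pair measured the same RNA, and each group is therefore 1 biological replicate, without a test between groups or a p-value across rats. By the RNA amounts given in the study's methods, each pool combined equal shares of only a few replicates, fewer than the rats of its group, and these replicates are not named as single rats. The number of chips limits the precision. After turning to running over sedentary, the log2 ratios of chips 1 and 2 had a Pearson's r of -0.76 over 41003 probes, and those of chips 3 and 4 had -0.69, so that across the array Cy5 over Cy3 was more alike on the chips of a pair than running over sedentary was. These are correlations over probes, which share the chip and are not independent replicates.

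Acetylcholine reaches the hippocampus mainly along axons from the medial septum and diagonal band. The cell bodies that transcribe Chat, Slc18a3 and Slc5a7 therefore lie mostly outside the dissected tissue, whereas nicotinic receptors are made by hippocampal pyramidal cells and interneurons as well as carried on incoming axons. The nicotinic receptor is a channel of several subunits. In the brain the main forms are the homomer of the Chrna7 product and the heteromer of the Chrna4 and Chrnb2 products, while receptors with the Chrna3 and Chrnb4 products are typical of autonomic ganglia and of the medial habenula. In bulk tissue, fewer cells of a type and less RNA per cell cannot be told apart.

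Chat and Slc18a3 form the cholinergic gene locus, in which Slc18a3 lies inside Chat, and the starts of the genes are 602 bases apart on the same strand in the GRCr8 assembly. Since no probe resolved to Chat, Slc18a3 is the transcript through which this locus was read here. Chrna5, Chrna3 and Chrnb4 are neighbours in that order, with a pseudogene and a long noncoding RNA between them as the annotated genes. The start regions of Chat and Slc18a3 are shown because they set the gene of the locus with a resolved probe beside the gene without one. Each is the RefSeq window from 250 bases before to 50 bases after the start, at chr16:7723367-7723666 for Chat and chr16:7722765-7723064 for Slc18a3, minus strand, 5′ to 3′. Capitals mark GGGCGG, the GC box that Sp1 binds, on either strand.
Chat: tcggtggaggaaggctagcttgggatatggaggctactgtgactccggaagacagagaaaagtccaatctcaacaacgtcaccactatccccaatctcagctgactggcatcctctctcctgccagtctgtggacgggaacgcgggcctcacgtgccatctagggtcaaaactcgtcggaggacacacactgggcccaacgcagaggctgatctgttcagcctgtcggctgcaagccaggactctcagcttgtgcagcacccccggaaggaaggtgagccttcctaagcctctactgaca
Slc18a3: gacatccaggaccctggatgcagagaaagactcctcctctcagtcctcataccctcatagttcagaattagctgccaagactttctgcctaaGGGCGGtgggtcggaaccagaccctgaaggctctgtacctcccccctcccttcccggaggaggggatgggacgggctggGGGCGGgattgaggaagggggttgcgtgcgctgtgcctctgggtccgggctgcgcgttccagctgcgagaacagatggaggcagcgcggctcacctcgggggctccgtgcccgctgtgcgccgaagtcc
The Slc18a3 window held 2 GC boxes and that of Chat held 0. Over the members, 9 of 10 windows held at least 1 GC box, counting overlapping matches, against 33.1% of 33469 windows of all genes. The GC content of the Slc18a3 window was 64.3% and that of the Chat window 57.3%, where the median over all windows was 51.7%. All 10 member windows lay above that median, from 53.0% to 75.0%, so the GC boxes were counted in GC-rich windows. A match of these letters is a description of the sequence and not a binding site.

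None of the member probes was called in either running mode. For a call, running over sedentary had to exceed 1.5-fold, or to lie under 0.75-fold, on each chip of the pair, and the deposited p-value had to be under 0.01 on each. That p-value comes from the error model of the scanner software and describes a spot on a single chip. In WR, 0 of 11 member probes were called higher and 0 lower, where 0.00244% and 0.0293% of 41003 probes measured on all chips were called. In RWR, 0 of 11 were called higher and 0 lower, against 0.00976% and 0.0488% of all probes. With the folds alone, without the p-value, the count remained 0 of 11 in each direction and each mode, where 0.212% of all probes were higher and 0.337% lower in WR, and 0.0878% and 1.4% in RWR. With shares this low in the whole array, no call among 11 probes does not set the cholinergic genes apart. Over the brightest probe of each of the 9 genes, the median log2 ratio of running over sedentary was -0.08 in WR and -0.03 in RWR, and the median over all probes was 0.0049 and -0.0019. Both chips of the pair lay on the same side of 0 at 3 of 11 member probes in WR (Chrna5, A_43_P16274 of Chrna7 and Slc5a7), against 22.4% of all probes, and at 3 of 11 in RWR (A_43_P11579 of Chrna7, Ache and Slc5a7), against 27.2%.

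**Figure D1:**
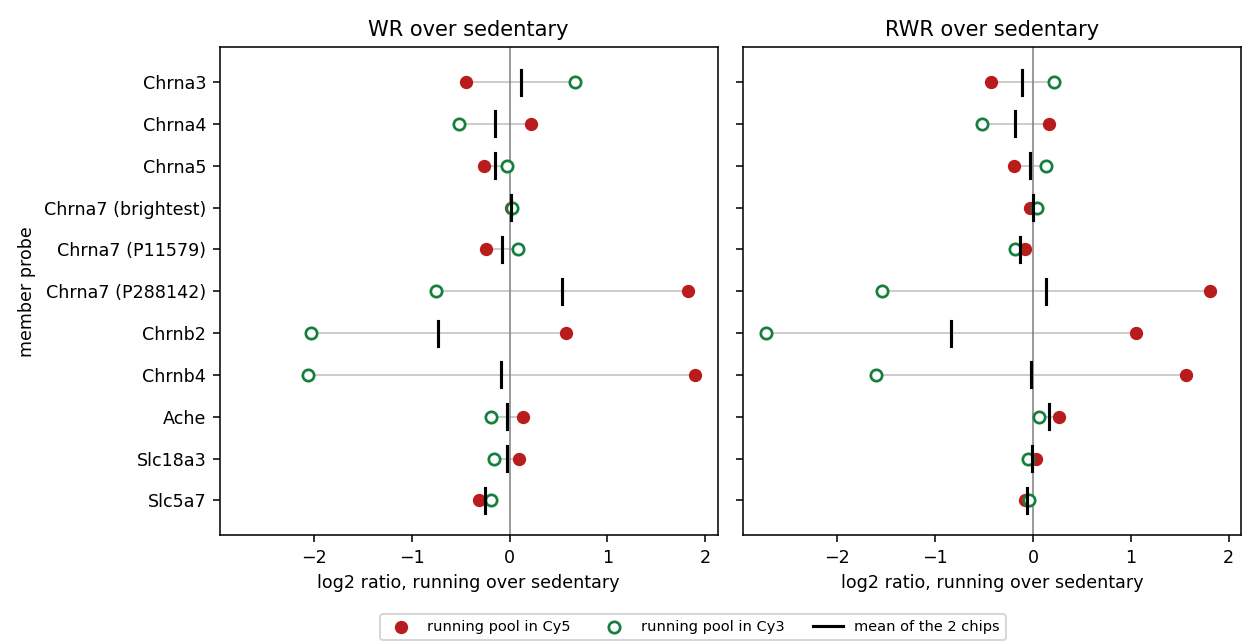
Log2 ratio of running over sedentary at each of the 11 member probes in WR (left) and RWR (right), with the chip that had the running pool in Cy5 as a filled point, the chip that had it in Cy3 as an open point, and their mean as a bar. The points of Chrnb2, Chrnb4 and the dimmest Chrna7 probe lie far apart on opposite sides of 0, whereas those of Slc5a7 and the brightest Chrna7 probe lie close together.

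Among the presynaptic genes, Slc18a3, which loads acetylcholine into synaptic vesicles, was well above background in every pool. Its processed signal, the background-subtracted and dye-normalized intensity, was 95.4, 96.3, 107.4 and 104.6 in the sedentary pool on chips 1 to 4, and 101.8 and 86.4 in WR and 109.8 and 100.9 in RWR. The sedentary and running signals overlapped in both modes. Its log2 ratio was 0.09 and -0.16 on the WR chips, a mean of -0.03 ± 0.18 (SD, n = 2 chips). In RWR it was 0.03 and -0.05, a mean of -0.01 ± 0.06 (SD, n = 2 chips).

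Slc5a7, the high-affinity choline transporter whose uptake limits the rate of acetylcholine synthesis, had the lowest mean deposited ratio in WR among the members well above background in both dyes, with both chips below 0. Its sedentary signal was 260.9 and 232.4 on the WR chips, where the WR pool had 209.4 and 203.6. Both WR signals lay below the lowest of the 4 sedentary signals of this probe. On the log2 scale the ratios were -0.32 and -0.19, a mean of -0.25 ± 0.09 (SD, n = 2 chips), which is a fold of 0.838. The propagated error of that mean, from the error model of both chips, was 0.15, and the deposited p-values were 0.13 and 0.36, so the difference did not exceed 2 propagated errors. After normexp background correction with loess, the mean in WR was -0.17, above the -0.22 of Chrna4. In RWR the signals were 268.1 and 233.7 against 283.6 and 240.6 in the sedentary pool, with log2 ratios of -0.08 and -0.04 and a mean of -0.06 ± 0.03 (SD, n = 2 chips).

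Ache, which hydrolyses acetylcholine in the synaptic cleft, had the highest mean in RWR among the members. The RWR signals of Ache were 915.1 and 826.3, against 762.2 and 792.8 in the sedentary pool on the same chips. Both RWR signals lay above all 4 sedentary signals, which ran from 758.9 to 802.0. These gave log2 ratios of 0.26 and 0.06, a mean of 0.16 ± 0.14 (SD, n = 2 chips) with a propagated error of 0.15. In WR the chips fell on opposite sides of 0, with 0.13 and -0.19, and the WR signals of 832.0 and 703.9 enclosed the sedentary signals of 758.9 and 802.0. The mean was -0.03 ± 0.23 (SD, n = 2 chips).

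**Figure D2:**
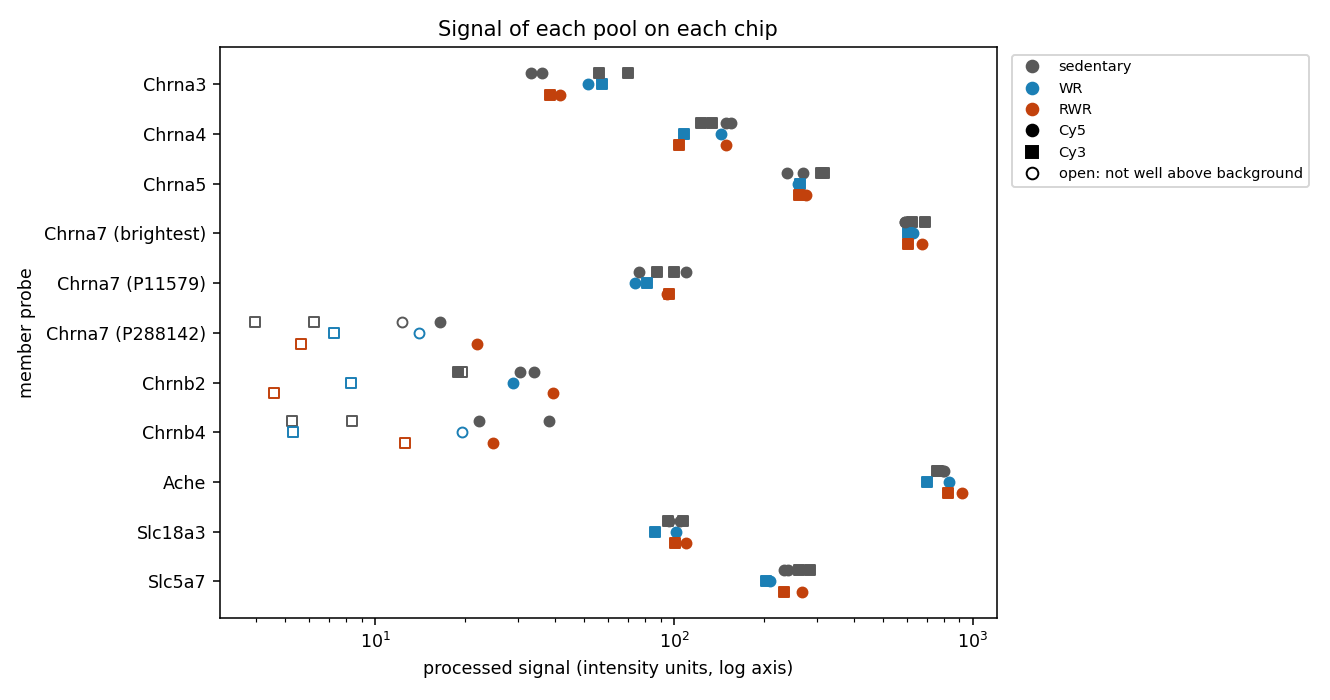
Processed signal, in intensity units on a log axis, of each pool on each chip at the 11 member probes, with Cy5 as circles, Cy3 as squares and open symbols for signals not well above background. For Chrnb2, Chrnb4 and the dimmest Chrna7 probe the circles lie to the right of the squares in the sedentary, WR and RWR pools. Signals of different probes are on no common scale of abundance.

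Chrna7, which encodes the subunit of the calcium-permeable homomeric receptor, had the member probe with the most spots. Its brightest probe, A_43_P16274, was spotted 10 times on each chip. The mean signals over the spots were 625.0, 592.0, 689.2 and 592.0 in the sedentary pool on chips 1 to 4, with 629.3 and 603.8 in WR and 672.4 and 607.1 in RWR. The log2 ratio was 0.01 and 0.03 in WR and -0.04 and 0.04 in RWR, with an SD between 0.030 and 0.037 over the 10 spots of a chip. The means of the pairs were 0.02 ± 0.01 in WR and 0.00 ± 0.05 in RWR (SD, n = 2 chips). The ratios of the chips were thus of the size of the spread between spots. Spots share the RNA of their pool, and their spread says nothing of the spread between rats.

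The other Chrna7 probes were dimmer. A_43_P11579, well above background in all pools, had -0.24 and 0.09 on the WR chips and -0.08 and -0.18 on the RWR chips, with means of -0.08 ± 0.23 and -0.13 ± 0.07 (SD, n = 2 chips). A_44_P288142 was not well above background in either pool on the WR chips, with signals of 14.0 and 7.30 in WR and 3.96 and 12.3 in the sedentary pool, so no fold is given there. On the RWR chips it was well above background in the pool that carried Cy5 only, the RWR pool on chip 3 and the sedentary pool on chip 4. Its signals there were 21.9 and 5.63 in RWR and 6.23 and 16.5 in the sedentary pool, and no fold is given there either.

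Chrna4 and Chrnb2 encode the partners of the most abundant heteromeric receptor of the brain. At the Chrna4 probe the sedentary signals were 122.8, 154.7, 133.3 and 148.7 on chips 1 to 4, the WR signals 143.3 and 107.9, and the RWR signals 149.0 and 103.5. In both modes the running pool was the brighter on the chip where it carried Cy5 and the dimmer where it carried Cy3. The log2 ratios were 0.22 and -0.52 in WR, a mean of -0.15 ± 0.52 (SD, n = 2 chips). In RWR they were 0.16 and -0.52, a mean of -0.18 ± 0.48 (SD, n = 2 chips), which was -0.05 after normexp background correction with loess.

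Chrnb2 was well above background in both pools on chip 3 alone. Its signals in Cy5 were 29.0 in WR on chip 1, 33.9 in the sedentary pool on chip 2, 39.3 in RWR on chip 3 and 30.4 in the sedentary pool on chip 4. In Cy3 they were 19.5 and 19.0 in the sedentary pool, 8.32 in WR and 4.58 in RWR. All Cy5 signals thus exceeded all Cy3 signals, whichever pool was labelled. On chip 3, the fold of RWR over sedentary was 2.07 with a deposited p-value of 0.0010. On chip 1 the sedentary pool, and on chips 2 and 4 the running pool, was not well above background, so the deposited ratios there are not measured on both sides. With them, the means of the deposited log2 ratios were -0.73 ± 1.84 in WR and -0.84 ± 2.67 in RWR (SD, n = 2 chips). These means lay more than 2 propagated errors from 0, the errors being 0.32 and 0.33, which held for 1 of 11 member probes in each mode, against 0.888% of all probes in WR and 1.94% in RWR. With normexp background correction and loess the means were -0.14 in WR and -0.16 in RWR, while without background correction they were -0.06 and -0.10. Under both alternatives the WR means of Chrna4 and Slc5a7 lay below that of Chrnb2, whereas in RWR Chrnb2 stayed the lowest of the 11 member probes.

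None of the neighbouring genes Chrna5, Chrna3 and Chrnb4 was called. Chrna5, an accessory subunit that alters the calcium permeability and desensitization of receptors, had sedentary signals of 311.0, 269.1, 316.2 and 238.4, WR signals of 260.0 and 263.6 and RWR signals of 276.0 and 262.2. Log2 ratios were -0.26 and -0.03 in WR, a mean of -0.14 ± 0.16, and -0.20 and 0.14 in RWR, a mean of -0.03 ± 0.24 (SD, n = 2 chips). Chrna3, the main ligand-binding subunit of ganglionic receptors, had sedentary signals of 70.0, 36.1, 55.9 and 33.1, with the higher signals in Cy3. Its log2 ratio was -0.44 and 0.67 in WR, a mean of 0.12 ± 0.79, and -0.43 and 0.21 in RWR, a mean of -0.11 ± 0.45 (SD, n = 2 chips). After normexp background correction with loess, the mean in WR lay on the other side of 0, at -0.08, and that in RWR was -0.0091, while without background correction the RWR mean was 0.019. Chrna3 was the 1 member probe with Cy5 below Cy3 on all 4 chips.

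Chrnb4, the partner of the Chrna3 product, was not well above background in at least 1 pool on each chip. The WR pool was not well above background on either chip, and the sedentary pool was well above it on chip 2, in Cy5, but not on chip 1. The lower bound of a fold was under 1, so none is given. The WR signals were 19.6 in Cy5 and 5.31 in Cy3, and the sedentary signals on these chips were 5.26 in Cy3 and 22.2 in Cy5. In RWR the signals in Cy5 were 24.7 in the running pool and 38.2 in the sedentary pool, and those in Cy3 were 12.6 and 8.38, not well above background. On both chips the pool in Cy5 was the brighter, and no fold is given.

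Averaging a pair separates the ratio into a part that follows the pool and a part that follows the dye, called here the Cy5 over Cy3 term. The latter was larger in size than the running over sedentary mean at 8 of 11 member probes in WR and 8 of 11 in RWR, against 70.3% and 67.6% of all probes. Cy5 was above Cy3 on all 4 chips at 5 of 11 member probes, namely those of Chrna4, Chrnb2, Chrnb4, Slc18a3 and A_44_P288142 of Chrna7, against 26.4% of all probes, and below Cy3 at Chrna3 alone, against 25.1%. In either direction, this held for 6 of 11 member probes, against 51.4% of all probes.

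On single chips, members did pass the thresholds. Chip 1 gave 0 of 11, chip 2 gave 2 lower, chip 3 gave 3 higher and chip 4 gave 2 lower. The share of all probes was 2.2% higher and 1.71% lower on chip 1, 3.94% and 3.87% on chip 2, 3.47% and 3.42% on chip 3, and 2.51% and 3.76% on chip 4. The members that passed were Chrnb2 and Chrnb4 on chips 2, 3 and 4 and A_44_P288142 of Chrna7 on chip 3, together 3 of 11 member probes, against 13.4% of all probes that passed on any chip. Each of the 3 probes was not well above background in at least 1 pool, and on each chip the pool that carried Cy5 was the higher. On chip 3 Chrnb2 was measured in both pools, and in the other cases the pool in Cy3 was not well above background.

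**Figure D3:**
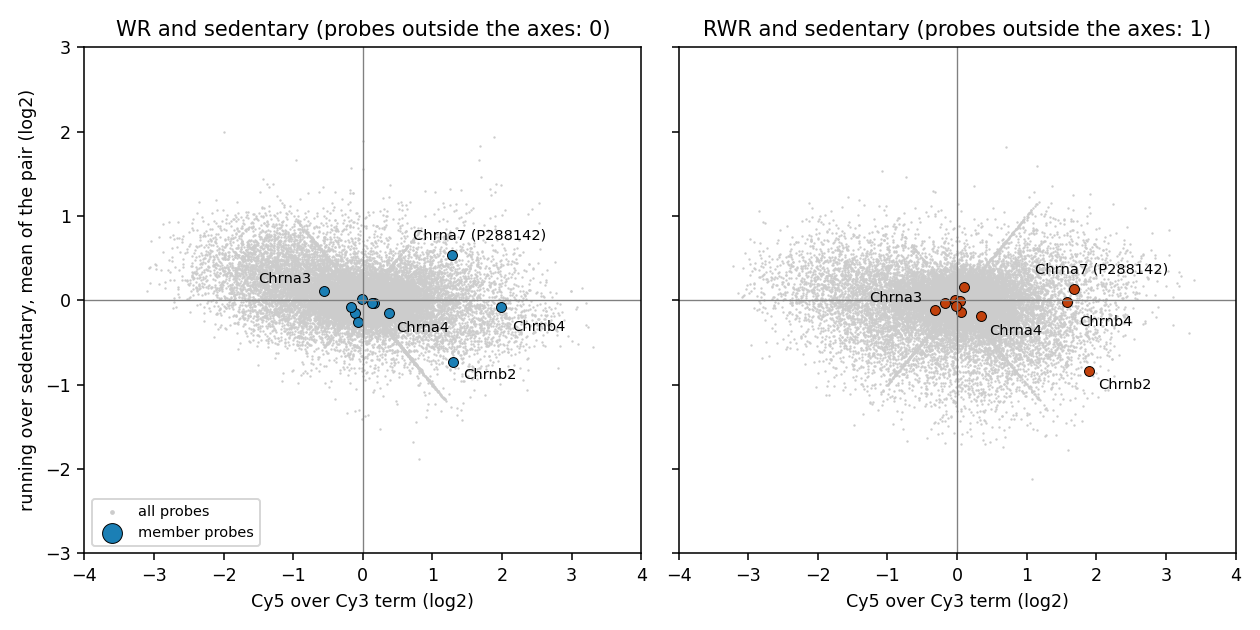
Mean log2 ratio of running over sedentary of a pair of chips against its Cy5 over Cy3 term (log2), for all probes in grey and the 11 member probes in colour, in WR (left) and RWR (right). Chrnb2, Chrnb4 and the dimmest Chrna7 probe lie to the far right, with Cy5 over Cy3 terms between 1.29 and 1.98.

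At the 8 member probes of 7 genes that stood well above background on all 4 chips in Cy3 and in Cy5, the means ran from -0.25 (Slc5a7) to 0.12 (Chrna3) in WR and from -0.18 (Chrna4) to 0.16 (Ache) in RWR, with propagated errors between 0.14 and 0.22. The median size of these means was 0.10 in WR and 0.09 in RWR, against 0.05 and 0.06 over all probes measured in this way. None of the 8 exceeded 2 propagated errors.

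The running modes were also set against each other within a dye, as the log2 ratio over sedentary in RWR minus that in WR. A dye effect that is fixed for a probe cancels in it, and it is a comparison of RWR with WR if the same sedentary pool was on all chips. The deposited ratios gave a Cy5 over Cy3 term of 1.30 in WR and 1.89 in RWR at Chrnb2. It was 1.98 and 1.58 at Chrnb4, and 1.29 and 1.68 at A_44_P288142 of Chrna7. At each of these probes at least 1 pool was not well above background, so a difference of the term between pairs is not shown. No member probe had both WR chips on one side of 0 and both RWR chips on the other (0 of 11, against 3.85% of all probes). None of the 11 member probes was past 1.5-fold or 0.75-fold in both dye orientations, against 5.23% of all probes. The sign was the same in both orientations at 5 of 11, against 52.2% of all probes. Slc5a7 had 0.24 with the running pools in Cy5 and 0.15 in Cy3, a mean of 0.19 ± 0.06 (SD, n = 2 orientations), and Ache had 0.13 and 0.25, a mean of 0.19 ± 0.08. Chrna5 had 0.06 and 0.17, a mean of 0.11 ± 0.07. The other two with the same sign were below 0, namely Chrna4 with -0.06 and -0.0034, and A_44_P288142 of Chrna7, for which pools were not well above background. After normexp background correction with loess the means were 0.09 for Slc5a7, 0.20 for Ache and 0.06 for Chrna5. With 1 of the 4 chips left out, the deposited ratios gave 0.13 to 0.26 for Slc5a7 and 0.03 to 0.35 for Ache. For Chrna5 they gave -0.05 to 0.28. The dyes are then unbalanced, so a dye effect of the probe does not cancel in these ranges. The propagated errors of the means from the deposited ratios were 0.21 for Slc5a7, Ache and Chrna5, and 0 of 11 member probes exceeded 2 errors, against 1.02% of all probes. Chrnb2 had 0.48 and -0.70, from ratios that were measured in both pools on chip 3 alone.

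**Figure D4:**
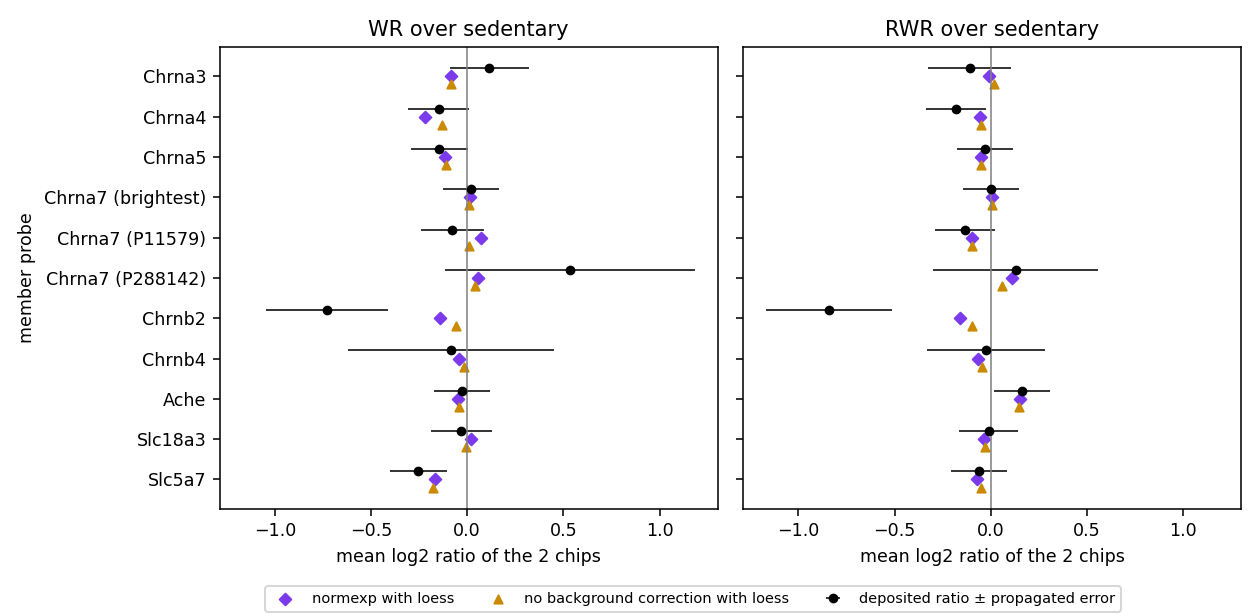
Mean log2 ratio of the chips of a pair at the 11 member probes in WR (left) and RWR (right), from the deposited ratio with its propagated error (circles), after normexp background correction with loess (diamonds) and without background correction with loess (triangles). The values of Chrnb2 move from -0.73 and -0.84 toward 0, whereas those of Ache in RWR stay between 0.15 and 0.16.

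The other genes of acetylcholine signalling gave no call either. Of the 10 remaining nicotinic subunit genes, all 10 had a probe, 0 were called in WR or RWR, and 3 (Chrna2, Chrna6 and Chrnd) were not well above background in any pool. Among those that passed the background flag in 1 dye or both on every chip, the highest mean in RWR was that of Chrng, a subunit of the fetal muscle receptor, with 0.26 ± 0.73 from pools that were not all well above background, and the lowest that of Chrne, which replaces it in adult muscle, with -0.25 ± 0.63 (SD, n = 2 chips). Of the muscarinic receptor genes, 4 of 5 had a probe and 0 were called. Chrm3, a receptor coupled to phospholipase C, had means of 0.01 in WR and 0.00 in RWR, and Chrm2, a presynaptic autoreceptor on cholinergic terminals, had -0.08 and -0.15.

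Of 13 genes of acetylcholine handling and nicotinic receptor accessory proteins, 7 had a probe and 0 were called. The lowest mean in RWR was that of Lypd1, a membrane-anchored protein of the Ly6 family that lowers nicotinic receptor function. Its log2 ratio was -0.19 and -0.45 in WR and -0.23 and -0.33 in RWR, on the same side of 0 on all 4 chips. The means were -0.32 ± 0.19 and -0.28 ± 0.07 (SD, n = 2 chips), with propagated errors of 0.17 and 0.16. Neither mean exceeded 2 propagated errors. The 4 ratios are not independent of each other if the same sedentary pool was on all chips. The highest mean in RWR was that of Colq, the collagen tail that anchors acetylcholinesterase, with 0.15 in RWR and 0.13 in WR.

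Of 4 marker genes of basal forebrain cholinergic neurons that are reported, 3 had a probe and 0 were called. Lhx8, a transcription factor of these neurons, had means of 0.01 ± 0.39 in WR and 0.03 ± 0.18 in RWR (SD, n = 2 chips). Ngfr, the low-affinity neurotrophin receptor that they carry, had -0.06 ± 0.45 and -0.07 ± 0.06 (SD, n = 2 chips) at a probe with 10 spots. Both were not well above background in at least 1 pool on a chip, which limits these means. Isl1 was not well above background in any pool.

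The labelled tissue was checked against 8 hippocampal neuron markers, of which 5 had a probe (Neurod2, Wfs1, Calb1, Camk2a and Pcp4), and all 5 were well above background in every pool on every chip. At the brightest probe of each, the means lay between -0.05 and 0.10 in WR and between -0.07 and 0.04 in RWR. Of 8 markers of the medial habenula and thalamus, 5 had a probe, 4 (Tac3, Gng8, Lef1 and Prkcd) passed the background flag in 1 dye or both on every chip and 0 were called. The means of these 4 ran from -0.14 to 0.06 in WR and from -0.11 to 0.24 in RWR. Of 5 choroid plexus markers, all with a probe, Ttr was called lower in WR, with a mean of -0.86, and 0 were called in RWR, where its mean was 0.12. Folr1, the other choroid plexus marker well above background on every chip, had -0.21 in WR and 0.06 in RWR. Kcnj13, Clic6 and Kl were not, Kl in no pool, and their mean ratios lay on both sides of 0 in each mode. The part of neighbouring tissue in the values of the members was not tested.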

How the data were processed

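Per the labels, hippocampal RNA pools were compared on 4 chips in 2 colours. Scans were processed by the authors in Feature Extraction 11.0.1.1. It subtracted background, normalized the dyes by LOWESS and gave, for each spot, a processed signal (intensity), a log10 ratio of Cy5 over Cy3, its error score and a p-value of the error model of that chip. The deposited scanner signals are intensities before these steps, and deposited flags mark spots well above background, outliers and saturation. In the deposited series matrix the authors gave log10 ratios of Cy5 over Cy3 that were not turned for the dye swap, within 0.001 of the scanner files at 100% of the spots compared. The scanner files give a log ratio of 0 at 1384 to 2825 noncontrol spots per chip, which include 0 member spots. Their p-values describe a single chip, not the spread between rats.

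Control spots were left out, as were the 118 to 140 spots of a chip flagged as outliers. Log10 ratios were converted to log2 and turned so that running stands over sedentary, spots of a probe were averaged, and the median of their p-values was taken. Between 67.5% and 82.5% of the spots of a dye were well above background and 0 were saturated. The array was designed on rn4; accessions, without their version, were looked up in the GRCr8 RefSeq table, used for names and for the start windows. The propagated error is the square root of the summed squared errors of the chips, divided by 2. For a probe with several spots, the error of a chip is the median of its spots' errors, not the error of their mean. Calls, the error rule and the alternatives are as in the report and below: normexp (offset 50) or no background correction with loess in limma 3.58.1 (R 4.3.3), median centring, the series matrix, no p-value filter, 1.5-fold in either direction, a filter on dim probes, the median of a gene's probes, and omission of each chip. Lower bounds used Aquantile-normalized signals. The calling was tested on simulated data with changes far past the folds. Recovery was required only at probes with a small dye term and error. The test therefore does not cover probes such as Chrnb2, Chrnb4 and A_44_P288142 of Chrna7. Python 3.11.15, numpy 2.4.6 and pandas 2.3.3 were used. All member probes are named; of other cholinergic lists, called genes and the highest and lowest in RWR among genes well above background; of marker lists, called genes. In the list of cholinergic neuron markers, 1 gene is not reported here. The members and lists were chosen with earlier results of these data known.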

Additional observations from a re-analysis of the deposited data

Results flagged for a closer look

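Of 22 listed genes outside the cholinergic members that passed the background flag in Cy3 and Cy5 on all 4 chips, 2 had both WR chips on one side of 0 and both RWR chips on the other, as did 4.62% of 24955 probes that passed it. The lists were chosen with earlier results of these data known, so this count is no independent support for a pattern. No difference was tested, as only 1 pool stands for each group. The Ttr probe, A_44_P175003, was below 0 on both WR chips and above 0 on both RWR chips, with a log2 difference of RWR minus WR of 0.98 and a propagated error of 0.21. Prkcd, a thalamic marker, had a difference of 0.37, within 2 propagated errors of 0.21. Its probe had 10 spots, and that error is built from the error of a single spot, not of their mean. Without the background filter, 3 of 39 listed genes outside the members had their modes on opposite sides of 0, against 3.85% of all probes. They included Kcnj13, another choroid plexus marker, in the reverse direction to Ttr. Its log2 ratios were 0.37 and 0.18 in WR and -0.20 and -0.84 in RWR, from pools not all well above background. No cholinergic member had its modes on opposite sides of 0 in either direction.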

How the results depend on the processing

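The count of member probes called was 0 in WR and in RWR without the p-value filter, with 1.5-fold in either direction, with either background alternative and with the filter on dim probes. With 1 chip of the pair left out it was 0 to 2 in WR (0 without chip 2 and 2 without chip 1) and 2 to 3 in RWR (2 without chip 3 and 3 without chip 4). The median of the 9 genes stayed below 0 under each normalization and probe alternative, from -0.08 to -0.03 in WR and from -0.05 to -0.03 in RWR. With 1 chip left out it ran from -0.19 to 0.09 in WR and from -0.042 to 0.033 in RWR, below 0 on the chip with the running pool in Cy3 and above 0 on the chip with it in Cy5. Of the 11 ratios of single probes, 3 in WR and 1 in RWR changed sign with normexp background correction, and 2 in each without background correction, and with either, 5 of the 11 values of RWR minus WR did. With 1 chip left out, 8 of 22 values changed sign in each mode. Of the 44 values of RWR minus WR, 15 changed sign and 30 moved by more than the spread between orientations. Leaving out a chip unbalances the dyes, so a dye effect does not cancel in these values. The same holds for the counts and medians with 1 chip left out. Median centring changed 1 sign, in RWR, and the series matrix none. No analysis paired by rat was possible because each group is a single pool, and the sample titles give no replicate numbers. Signal over background limits Chrnb2, Chrnb4 and A_44_P288142 of Chrna7, at which at least 1 pool was not well above background.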
